A study of Mus musculus with 2 samples.

Results

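The zinc proteases that cut extracellular matrix, the related membrane sheddases and their inhibitors were examined in mouse osteoblasts that had been exposed to secreted products of 2 prostate cancer cell lines. The set held matrix metalloproteinases (MMPs), ADAMTS proteases, ADAM proteases, tissue inhibitors of metalloproteinases (TIMPs) and Reck. Members were listed by gene symbol, with earlier results of these data known. Of 46 listed symbols 41 had a probe set that the platform annotation gives to that gene alone, and these made 84 of the 45037 probe sets that are not controls and 41 of 18193 genes. Expression of Mmp15, Mmp28, Adamts2, Adamts14 and Adamts17 was not analysed here, but their promoter windows are among those searched for motifs below.

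Primary osteoblasts, of a strain and age that the labels do not give, were cultured in alpha-MEM containing 10% fetal calf serum and differentiated for 10 days with ascorbic acid at 50 µg/ml and beta-glycerophosphate at 10 mM. After a night without serum, one culture was given conditioned medium of MDA-PCa2b cells (1 array) and the other that of PC-3 cells (1 array), each for 6 hours. Both lines are human and were established from bone metastases of prostate cancer, and the study asked how the factors they release act on osteoblast transcripts. Untreated osteoblasts were not analysed here, so "higher" and "lower" always set PC-3 medium against MDA-PCa2b medium. With 1 array per medium there is no spread between cultures, no test and no p-value.

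MMPs are made as inactive zymogens in which a prodomain cysteine blocks the catalytic zinc. Removal of the prodomain by plasmin, furin-like convertases or other MMPs opens the site, and TIMPs then close it again by binding it directly. ADAMTS proteases share the zinc site and cut proteoglycans, procollagens or other matrix proteins, whereas ADAM proteases sit in the membrane and shed ectodomains of cytokines and receptors. In bone, osteoblasts and hypertrophic chondrocytes are known as sources of the collagenase Mmp13 and of the membrane-anchored Mmp14, while Mmp9 is best known from osteoclasts.

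Several MMP genes lie next to each other on mouse chromosome 9, in the order Mmp13, Mmp12, Mmp1b, Mmp3, Mmp1a, Mmp10, Mmp8, Mmp27, Mmp20 and Mmp7. This run of 10 genes is shown first because Mmp3 lies in it and because the promoters of Mmp13, Mmp12, Mmp3 and Mmp10 hold the same 2 short motifs. The windows below run from 110 bases before the annotated start to 10 bases after it, 5′ to 3′ (RefSeq, GRCm38.p6). Capitals mark the AP-1 motif TGANTCA and the motif TATAAA.
Mmp13 (chr9:7272404-7272523, plus strand): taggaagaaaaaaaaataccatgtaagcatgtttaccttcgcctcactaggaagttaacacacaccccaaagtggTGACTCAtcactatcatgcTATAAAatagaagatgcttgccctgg
Mmp12 (chr9:7347264-7347383, plus strand): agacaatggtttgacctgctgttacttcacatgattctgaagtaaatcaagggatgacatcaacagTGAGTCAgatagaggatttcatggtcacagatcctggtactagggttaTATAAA
Mmp3 (chr9:7445712-7445831, plus strand): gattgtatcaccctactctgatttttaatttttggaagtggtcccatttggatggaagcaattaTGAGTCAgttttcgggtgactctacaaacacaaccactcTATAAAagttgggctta
Mmp10 (chr9:7502232-7502351, plus strand): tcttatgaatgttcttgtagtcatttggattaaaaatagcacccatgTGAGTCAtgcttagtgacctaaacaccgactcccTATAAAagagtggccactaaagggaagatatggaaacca
The second of the annotated Mmp12 starts is shown. The AP-1 match began 35 bases before the start in Mmp13, 44 in Mmp12, 46 in Mmp3 and 63 in Mmp10. Windows of 300 bases (250 before the start) were searched on both strands for AP-1, TATAAA, the ETS motif AGGAAG, the RUNX motif TGTGGT, the STAT motif TTCNNNGAA and the NF-kB consensus, 6 motifs in all. AP-1 and TATAAA matches occurred together in 8 of the 12 windows of the run and in 1.54% of all 32851 windows. Besides the genes shown, Mmp1b, Mmp1a, Mmp20 and Mmp7 each had a window with both. The run is shown for these motifs, so its share is a description only. A match is only a run of letters and no evidence that a factor binds there.

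**Figure D1:**
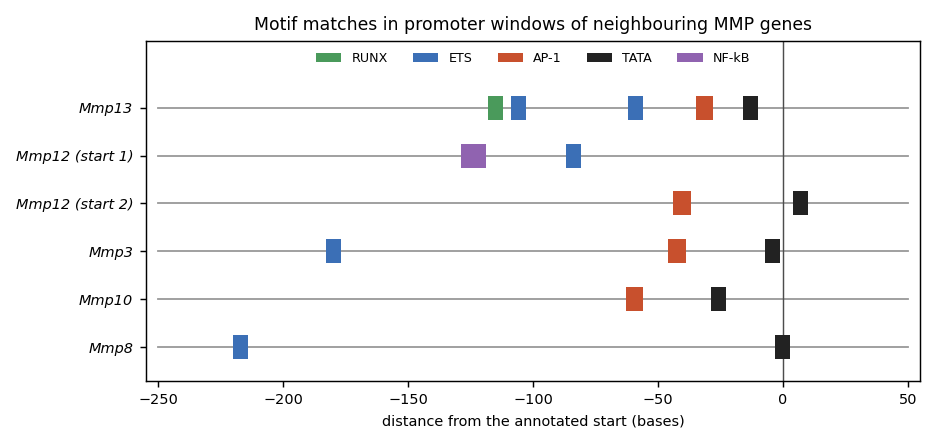
Position of motif matches in the promoter windows of the member genes of the chromosome 9 run; the x axis gives the distance in bases from the annotated start (vertical line), each bar spans 1 match and the colour names the motif. Mmp13, Mmp3, Mmp10 and the second start of Mmp12 each hold an AP-1 match upstream of a TATAAA match, with no motifs overlapping in these windows.

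Mmp3 (stromelysin-1, which cuts proteoglycans, fibronectin and other MMP zymogens) crossed the floor between the media. Its signal was 48.7 with MDA-PCa2b medium, under the floor, and 525 with PC-3 medium. The floor is the median signal of each array (56.7 and 57.7) and a ratio against a value under it is a bound, so Mmp3 was at least 9.25-fold higher. It rests on a single probe set, and a floor raised to the 75th percentile brought the bound on its log2 ratio from 3.21 to 0.81, so its place in the order of the members is not fixed. In bulk cultures, a change in the number of cells that make a transcript and in the RNA per cell cannot be told apart.

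Among the neighbours of Mmp3, ratios were measured for Mmp13 and Mmp12 and lay near 0. Mmp13, which cuts fibrillar collagen and is a classic product of mature osteoblasts, gave signals of 16381 and 16833 (log2 ratio 0.04). The highest signals on the arrays were 24832 and 24562, and whether differences are compressed near that level was not tested. Mmp12, the macrophage elastase gene, was at 97.1 and 98.8 (log2 ratio 0.02), not far above the floor. Mmp10 (stromelysin-2), whose AP-1 and TATAAA letters match those of Mmp3, was under the floor on both arrays, at 6.14 and 53.0. The collagenase gene Mmp8 was at 4.42 and 25.6, also under the floor, so neither gene has a ratio. Both were nominally higher with PC-3 medium, as was Mmp3, and with log2(signal + 16) in place of the floor both were at least 2-fold higher. The other 4 genes of the run with a probe set, Mmp1a, Mmp1b, Mmp7 and Mmp20, gave signals between 0.75 and 17.2. Their promoters also hold both the AP-1 and TATAAA letters. Of the 9 genes of this run with a probe set, Mmp3 alone crossed the floor between the media.

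Over the whole set, 28 of the 41 genes passed the floor on both arrays (68.3%, against 58.5% of all genes). A further 3 passed it only in PC-3 medium and 1 only in MDA-PCa2b medium, and 9 stayed under it. Among the 28 measured genes, 3 were at least 2-fold higher (Adamts5, Mmp19 and Timp1) and 0 at least 2-fold lower. Of all 10649 genes measured on both arrays, 1.9% reached a 2-fold increase and 1.68% a 2-fold decrease. At 1.5-fold the counts were 7 higher and 2 lower, where 5.18% and 6.23% of all measured genes lay past that ratio. The 7 were Adamts5, Mmp19, Timp1, Adamts4, Adamts1, Adam8 and Adam9, and the 2 were Mmp16 and Adamts9. Of the 4 members that passed the floor on 1 array, Mmp3 was at least 2-fold higher and Adamts18 at least 2-fold lower. Among all 686 genes of that kind, 5.54% were at least 2-fold higher as a bound and 4.52% lower. The median log2 ratio of the measured members was 0.14, beside -0.04 for all measured genes.

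**Figure D2:**
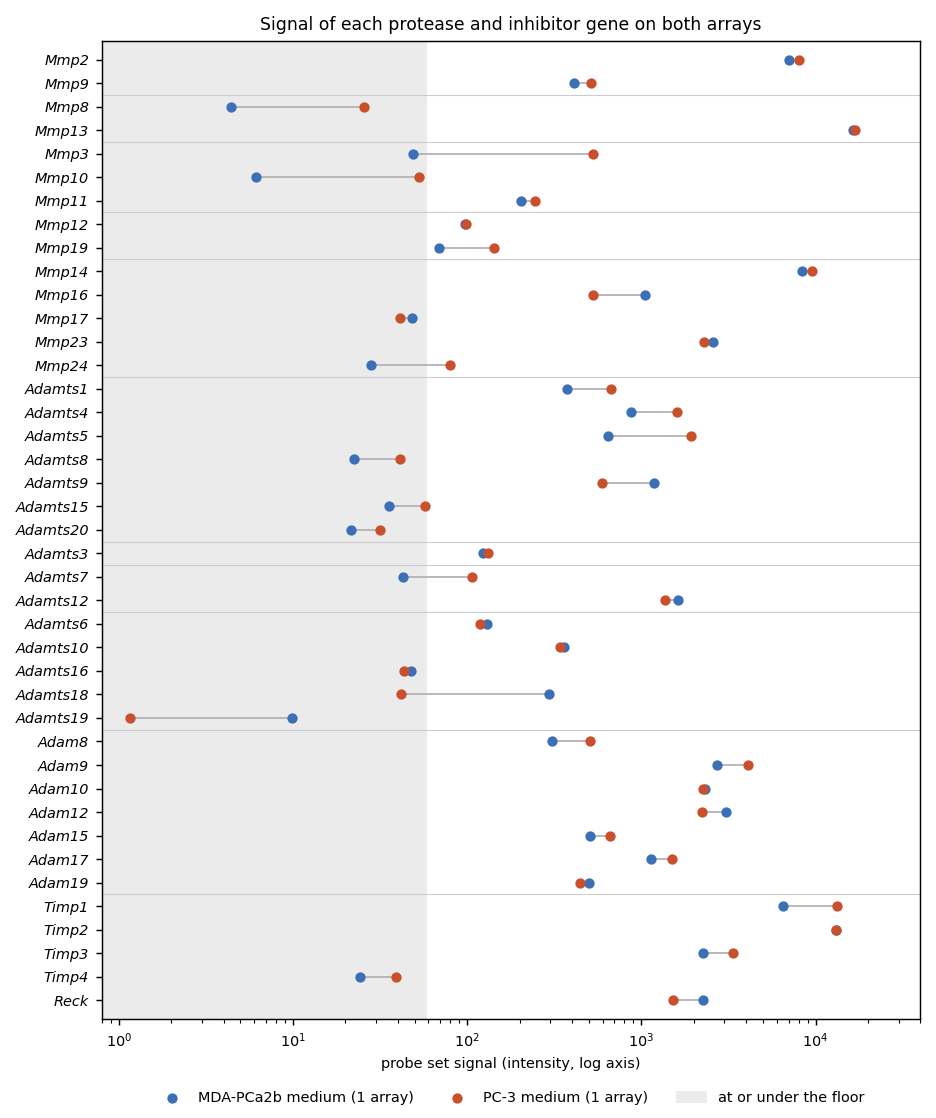
Signal of the brightest probe set of each of the 41 genes on the MDA-PCa2b medium array and the PC-3 medium array (x axis, intensity on a log scale); horizontal lines separate the classes, and shading marks signals at or under the floor. The members furthest apart outside the shaded range are Mmp3 (48.7 and 525) and Adamts18 (297 and 41.5), each with 1 point in it, while Mmp13, Mmp12, Timp2 and Adam10 lie almost on top of each other.

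The gelatinases cut denatured collagen and basement membrane. Mmp2, a constitutive product of mesenchymal cells, gave 7037 and 8048, and its second probe set 6728 and 7565, for log2 ratios of 0.19 and 0.17. Mmp9 gave 411 and 513 (log2 ratio 0.32), but its second probe set gave 362 and 386 (0.09), so the difference between its probe sets was about as large as the ratio. Macrophage and osteoclast markers were present in these cultures beside Mmp9 and Mmp12: 10 of 13 passed the floor on both arrays, including Lyz2 at 9194 and 9416 and Csf1r at 2713 and 2378. Of the 10 measured, 8 had a log2 ratio above 0, with a median of 0.19, among them Fcgr1 (86.7 and 153, 1.77-fold) and Cd68 (566 and 851, log2 ratio 0.59). The summed signal of all 13 on the arrays was 23128 and 23682. Among osteoclast genes of the list, Ctsk was at 7420 and 7336 and Acp5 at 225 and 306, while Calcr, Dcstamp and Ocstamp were under the floor. The part of these cells in the signals was not tested.

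Among the remaining secreted MMPs, Mmp19, which cuts basement membrane proteins, had signals of 68.9 and 143 (2.07-fold higher). Both values are low, and its second probe set was under the floor at 26.7 and 56.8. Mmp19 has no ratio when the floor is raised to the 75th percentile. Mmp11 (stromelysin-3, activated inside the cell by furin) gave 203 and 245, a log2 ratio of 0.27. All 6 measured secreted MMPs had a log2 ratio above 0, from 0.02 to 1.05, with a median of 0.23, and 4692 of all 10649 measured genes also lay above 0.

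Membrane-anchored MMPs went in different directions. Mmp14 (MT1-MMP), the collagenase of the cell surface and activator of pro-Mmp2, gave 8376 and 9491, and the log2 ratios of its 3 probe sets were 0.14, 0.18 and 0.23. Mmp16 (MT3-MMP), a close relative that also activates pro-Mmp2, went the other way. It gave 1044 and 525 with its brightest probe set (1.99-fold lower, just short of the 2-fold threshold), 622 and 369, 236 and 94.5, and 198 and 106 with the others. All 4 Mmp16 probe sets were lower with PC-3 medium, by log2 ratios of -0.75 to -1.32. Mmp23, a short MMP without a haemopexin domain, gave 2568 and 2298 (log2 ratio -0.16, second probe set -0.23). Mmp24 (MT5-MMP) passed the floor only in PC-3 medium, at 28.0 and 79.5 (a bound of 0.49 on the log2 ratio), and the GPI-anchored Mmp17 was under the floor at 48.2 and 41.5.

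**Figure D3:**
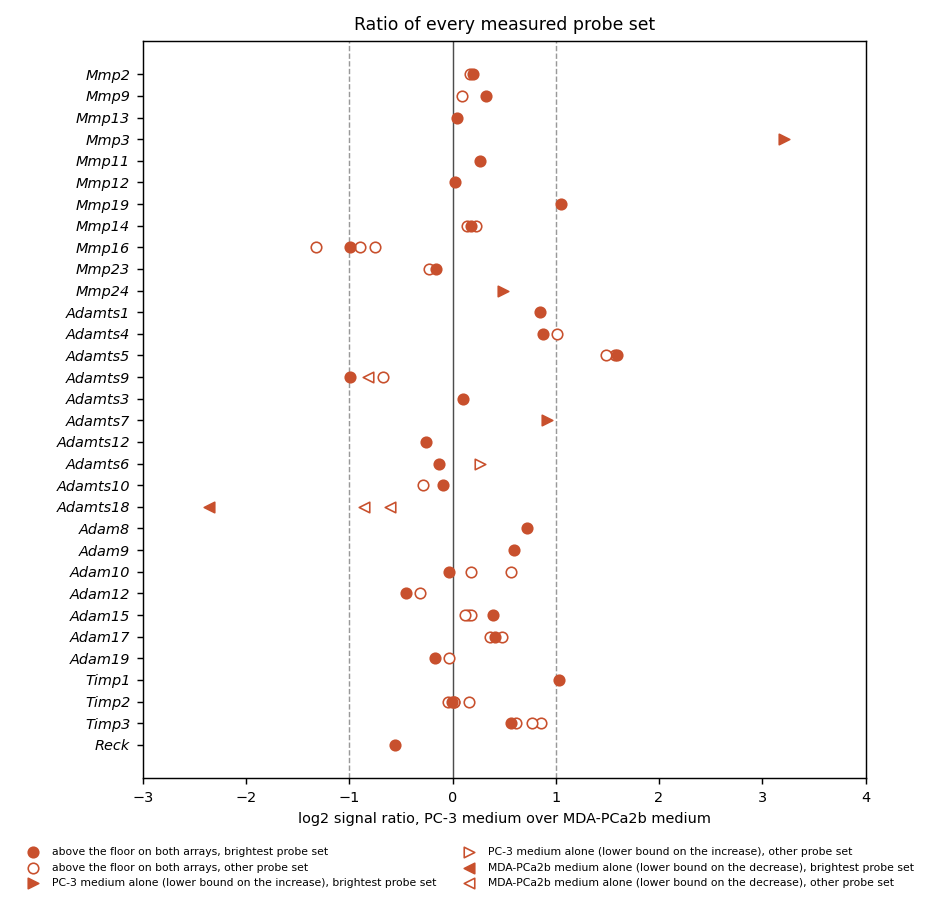
Log2 ratio of each probe set, PC-3 medium over MDA-PCa2b medium, for every member with a probe set above the floor on at least 1 array; filled symbols mark the brightest probe set, open symbols the others, triangles mark bounds and dashed lines a 2-fold difference. The probe sets of Adamts5 cluster between 1.49 and 1.59 and those of Mmp16 between -1.32 and -0.75, while those of Adam10 straddle 0.

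ADAMTS proteases that cut aggrecan and versican had the highest class median, 0.86 over 4 measured genes of 7. Bounds do not enter class medians, so that of the stromelysins (0.27) rests on Mmp11 alone and leaves out Mmp3. Adamts5, the main aggrecanase of mouse cartilage, had a signal of 640 with MDA-PCa2b medium against 1931 with PC-3 medium, and was 3.02-fold higher. Its other measured probe sets gave 175 and 523, and 428 and 1202, with log2 ratios of 1.57 and 1.49, and the remaining one was under the floor at 4.62 and 2.60. All 3 measured probe sets therefore differed by a like amount. Adamts4, the other major aggrecanase gene, gave 874 and 1606 (1.84-fold), and 697 and 1409 with its second probe set (log2 ratio 1.01). Adamts1, the neighbour of Adamts5 on chromosome 16 and a versicanase gene, gave 373 and 672 (1.80-fold).

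Adamts9, a versicanase gene of the same class, had the opposite sign. Its signals were 1178 and 592 (1.99-fold lower), a second probe set gave 354 and 221, and the last passed the floor only in MDA-PCa2b medium, at 102 and 53.6. Adamts8, Adamts15 and Adamts20 were under the floor on both arrays, with signals of at most 35.6 and 57.2. Chondrocyte markers were also measured in these cultures, 8 of 8 above the floor, with Col2a1 at 4471 and 4162. Their summed signal was 11590 and 10936, and their median log2 ratio was -0.06, with 3 of 8 above 0. Col10a1 was at 204 and 78.1, and Col9a2 at 126 and 169. The part of such cells in the aggrecanase signals was not tested. Acan, the aggrecan gene itself, was at 654 and 469 (log2 ratio -0.48), and Vcan, the versican gene, at 941 and 1425 (0.60).

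Adamts18, an orphan family member, passed the floor only with MDA-PCa2b medium. Its brightest probe set gave 297 with MDA-PCa2b medium against 41.5 with PC-3 medium, under the floor, at least 5.14-fold lower. Its other probe sets gave 105 and 14.7, and 87.9 and 8.20, so all 3 were above the floor with MDA-PCa2b medium but under it with PC-3 medium. The paralogue Adamts16 was under the floor on both arrays (47.6 and 43.6), as was Adamts19 (9.85 and 1.16). Adamts6 (130 and 118) and Adamts10 (361 and 340), which are linked to fibrillin microfibrils, had log2 ratios of -0.13 and -0.09. A second Adamts6 probe set passed the floor only in PC-3 medium (47.1 and 68.3), opposite in sign.

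Other ADAMTS genes differed little or were dim. The procollagen N-proteinase gene Adamts3 gave 123 and 132 (log2 ratio 0.10). Of the pair known to cut cartilage oligomeric matrix protein, Adamts12 gave 1626 and 1363 (log2 ratio -0.26), and Adamts7 passed the floor only in PC-3 medium, at 43.0 and 106, a bound of 1.88-fold. Their substrate gene Comp was at 4154 and 3657, a log2 ratio of -0.18.

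All 7 ADAM genes were above the floor on both arrays, and none differed 2-fold. Adam8, a protease gene of leukocytes and osteoclasts, gave 307 and 506 (1.65-fold higher), and Adam9, a widely expressed sheddase gene, gave 2711 and 4106 (1.51-fold higher), each by 1 probe set. Adam17, the TNF-alpha converting enzyme, was 1130 and 1505 with its brightest probe set, and its 3 probe sets lay close together, at log2 ratios of 0.36, 0.41 and 0.48. Rhbdf2 encodes iRhom2, which carries Adam17 to the cell surface, and crossed the floor at 16.7 and 136, at least 2.40-fold higher, while its relative Rhbdf1 was at 1146 and 1418.

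Adam10, the Notch sheddase gene, was not settled by its probe sets. The brightest gave 2330 and 2272 (log2 ratio -0.04), and the others 587 and 666 (0.18) and 256 and 380 (0.57). Adam12, a gene of mesenchymal and fusing cells, gave 3068 and 2244 (log2 ratio -0.45, second probe set -0.31). Adam15 gave 505 and 661 (0.39), with its other 3 probe sets between 0.12 and 0.18, and Adam19 gave 502 and 447 (-0.17).

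The inhibitors also had members on both sides of 0. Timp1, an inducible inhibitor of most MMPs, gave 6503 with MDA-PCa2b medium against 13270 with PC-3 medium, a 2.04-fold difference by its single probe set. Among the 193 genes whose mean signal lay within 0.5 log2 units of that of Timp1, 1.55% had a ratio this high, Timp1 included. The like share, on the side of each gene, was 1.02% for Adamts5, 1.14% for Mmp19, 1.26% for Adamts9 and 1.47% for Mmp16. These are the measured members with the largest ratios, so their small shares follow from that choice. Among the other measured members the share ran from 2.47% (Adamts4) to 68.0% (Timp2). Timp3, the matrix-bound inhibitor of MMPs, ADAM17 and aggrecanases, gave 2262 and 3351 (1.48-fold), and its other probe sets 490 and 887, 1611 and 2739, and 680 and 1038. All 4 Timp3 probe sets were higher, with log2 ratios of 0.57 to 0.86.

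Timp2, which forms the complex in which Mmp14 activates pro-Mmp2, gave 13179 and 13146. Its 5 measured probe sets had log2 ratios between -0.04 and 0.16. Reck, a membrane-anchored inhibitor of Mmp14, Mmp2 and Mmp9, was lower, at 2245 and 1527 (1.47-fold, log2 ratio -0.56, 1 probe set). Timp4 was under the floor on both arrays.

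The Timp1 promoter window is shown as that of the inhibitor with the largest difference. Capitals mark the ETS motif, and AP-1, TATAAA, RUNX, STAT and NF-kB letters were not found in it.
Timp1 (chrX:20869916-20870215, plus strand): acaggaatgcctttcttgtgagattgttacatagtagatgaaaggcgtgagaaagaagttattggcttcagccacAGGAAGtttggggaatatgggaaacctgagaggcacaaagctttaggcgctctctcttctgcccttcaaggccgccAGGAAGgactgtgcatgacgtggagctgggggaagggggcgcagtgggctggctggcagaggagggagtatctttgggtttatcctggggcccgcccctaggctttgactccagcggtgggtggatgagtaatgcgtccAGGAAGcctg
ETS letters were found in 35.4% of all 32851 windows, and in 12 of the 34 windows that 30 members have. AP-1 letters were found in 5 of the 34 (7.81% of all windows) and TATAAA in 6 (13.6%). RUNX letters were in 5 (16.8%), those of NF-kB in 4 (8.46%) and of STAT in 2 (8.30%). The AP-1 and TATAAA counts come mainly from the chromosome 9 run shown for these motifs. Outside that run, only Adam19 had AP-1 and only Adamts1 had TATAAA. None of the 6 motifs was found in the window of Adamts18. Of the members past 1.5-fold, Adamts5, Mmp19, Adamts4, Adamts7, Adam9 and Mmp16 had no window, so these shares do not cover them.

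**Figure D4:**
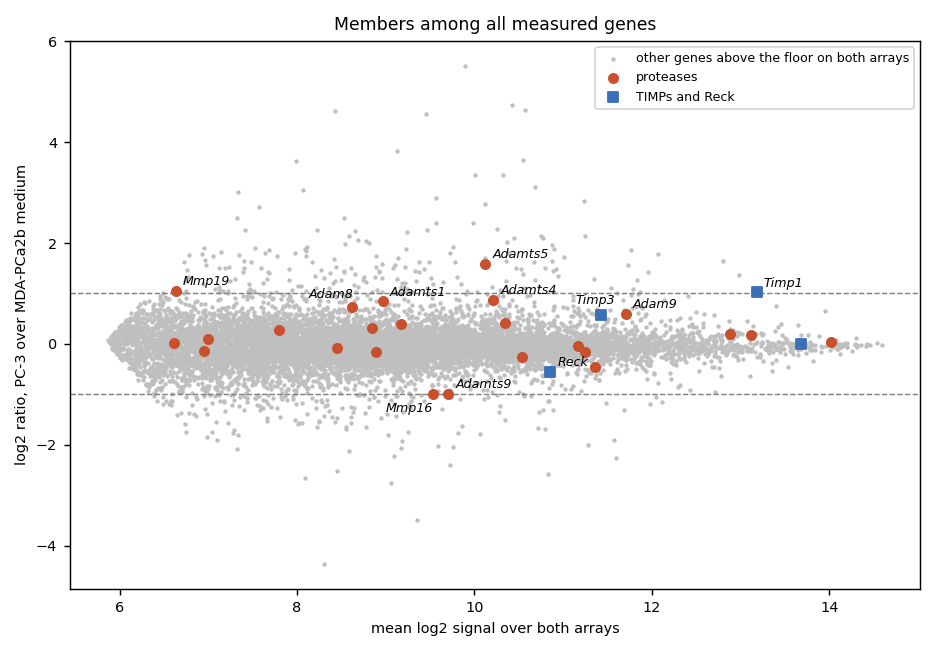
Log2 ratio of each gene above the floor on both arrays (y axis) against its mean log2 signal (x axis), with the 24 measured proteases as circles, the 4 measured inhibitors as squares and all other genes in grey; dashed lines mark 2-fold. Timp1 lies at 1.03, Adamts5 is the highest member at 1.59, and Mmp16 and Adamts9 lie side by side at -0.99.

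Agreement between probe sets is the only repeat measurement here. Of 16 members with several probe sets above the floor on both arrays, 14 had log2 ratios of 1 sign, and Adam10 and Timp2 had both. The like share over all genes was not counted, so this does not set the members apart. Log2 ratios of probe sets of the same gene scattered around their mean with an SD of 0.15 in these 16 members and of 0.24 in all 4924 such genes. It was 0.31, 0.21 and 0.16 in the lowest, middle and highest tertile of signal, so the value of the members is close to that of bright genes. This is scatter within 1 pair of arrays and does not stand for the spread between cultures. In rank among all 10649 measured genes, counted from the highest ratio, Adamts5 was 78, Mmp19 173, Timp1 186, Adamts4 263, Adamts1 282 and Adam8 358. Counted from the lowest, Mmp16 was 182 and Adamts9 183.

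Genes that act with these proteases were taken from lists chosen with earlier results of these data known. Transcription factors and cytokine signals known to induce MMP genes had a median of 0.86, which was 0.55 with a 25th percentile floor, 0.48 with a 75th percentile floor and 0.42 with log2(signal + 16). Among the 16 measured, 8 reached a 2-fold increase and 0 a 2-fold decrease, beside 2 and 0 of the 24 measured proteases. Of all 10649 measured genes, 1.9% and 1.68% did so. Because of how the list was chosen these counts are a description only, and the difference was not tested. Cebpb, a factor of inflammatory transcription, gave 658 and 2670 (4.06-fold), the AP-1 gene Junb 142 and 537 (3.79-fold) and the interleukin-1 receptor gene Il1r1 314 and 1154 (3.68-fold). Fosl1 (88.2 and 299, 3.39-fold) and Jun (929 and 2417, 2.60-fold), also AP-1 genes, were higher as well. Fosl2 and Jund had log2 ratios of 0.03 and 0.19, and Fosb was under the floor. Fos, another AP-1 gene, went the other way, at 780 and 511. Of the ligand genes, Il6 gave 107 and 372 (3.48-fold) and Tgfb1 1620 and 2247, while Il1a, Il1b, Tnf and Osm were under the floor on both arrays.

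Activators of MMP zymogens had a median of 0.18, and 0 of 9 measured genes differed 2-fold. Plau, the urokinase gene, and Plg, the plasminogen gene, were under the floor. The convertase gene Furin gave 563 and 650, and its relatives Pcsk5 (830 and 1247) and Pcsk6 (1576 and 991) had opposite signs. Among other inhibitors and binding partners, 1 of 11 was past 2-fold on the higher side, Tfpi2 (164 and 503, a Kunitz inhibitor of plasmin), and 1 lower, Pcolce2, an enhancer of procollagen C-proteinase (491 and 212). The median was 0.15.

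For matrix substrates the median was 0.02. Of 21 measured genes the brevican gene Bcan (299 and 136) was the 1 past 2-fold, on the lower side. Other genes of the metzincin families had a median of -0.19 over 9 measured genes, which turned to 0.02 with a 75th percentile floor and to 0.01 with the mean over probe sets, and the 1 past 2-fold was lower, the tolloid-like procollagen C-proteinase gene Tll1 (218 and 107).

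**Figure D5:**
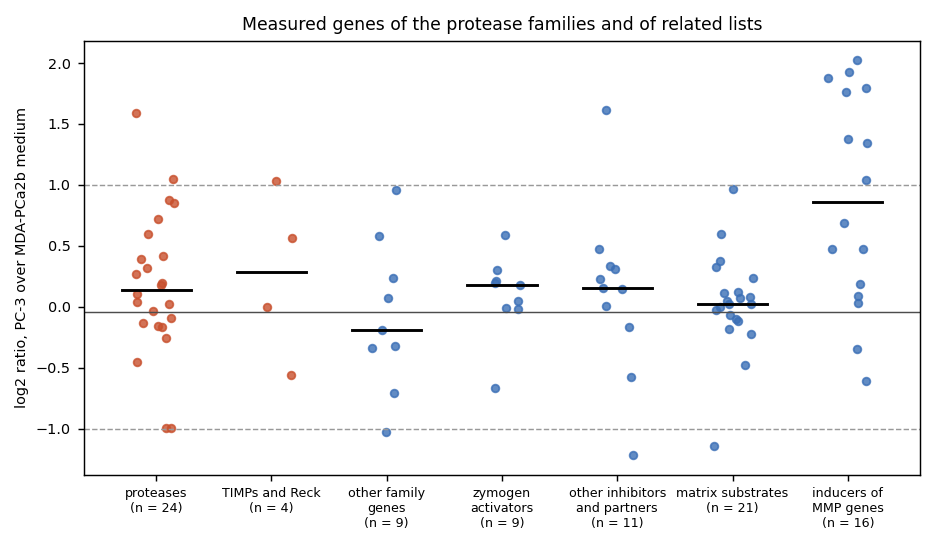
Log2 ratio of each measured gene (points) in the protease and inhibitor sets and in 5 related lists, with the median of each as a thick bar, the median of all measured genes (-0.04) as a thin line and 2-fold as dashed lines. Only the inducers of MMP genes, of the lists shown, have a median above 0.5 (0.86, and 0.42 with log2(signal + 16)); points are spread sideways for clarity.

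Both arrays had been scaled to the same trimmed mean signal (300.002). All 6 osteoblast markers measured here passed the floor on both arrays, among them Col1a1 (20109 and 20052), Alpl (4649 and 3490) and Sp7 (1469 and 919). All 6 had a log2 ratio below 0, with a median of -0.11, and 5957 of all 10649 measured genes also lay below 0. Of 8 neutrophil markers 1, Camp, passed the floor, on the PC-3 medium array at 60.3, and all 6 endothelial markers were under it. Osteoblast markers were thus present, with macrophage and chondrocyte markers beside them, and Runx2, Bglap, Bglap2 and Spp1 were not analysed here. Groups were taken from the source descriptions, since the title given to the PC-3 array carries "MDA" as well.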

How the data were processed

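Total RNA (5 µg per culture) of 2 cultures was hybridised to 1 Affymetrix mouse array each. The deposited values are probe set signals (linear intensity), produced by the authors; the submitters' processing notes name GCOS 1.4 with MAS5. The scaling target, background settings and detection calls are not given in the sources used here. Both columns were used, and 0 were left out. Of 45101 probe sets 64 controls were removed. Genes were named through the platform annotation where it lists 1 symbol (34958 probe sets; 932 listed several), and 34741 of those that are not controls matched a RefSeq gene by Entrez identifier, with 0 symbols updated. No expression result uses coordinates.

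Signals under the 50th percentile of their array were set to that floor, log2 was taken, and the PC-3 medium value minus the MDA-PCa2b medium value gave the ratio. The brightest probe set stood for its gene. The alternatives tried were a 25th or 75th percentile floor, log2(signal + 16), quantile normalisation, a median ratio of 0, the mean over probe sets, omission of probe sets with several possible targets, and 1.5-fold and 3-fold thresholds. Members, classes and lists were chosen with earlier results of these data known. Members past 1.5-fold were given with every probe set, and by rule at most 3 genes past 2-fold in each related list. Other genes named from those lists (Acan, Vcan, Comp, Rhbdf1, Rhbdf2, Fos, Fosb, Fosl1, Fosl2, Jun, Jund, Il1a, Il1b, Il6, Tgfb1, Tnf, Osm, Plau, Plg, Furin, Pcsk5, Pcsk6) and the marker genes named were chosen after their values were seen. Scripts ran under Python 3.11.15 with numpy 2.4.6, pandas 2.3.3 and matplotlib 3.10.9, and were tested on simulated data. The number of arrays limits the precision: without replicates no error between cultures can be given.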

Additional observations from a re-analysis of the deposited data

How the results depend on the processing

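The 3 members at least 2-fold higher (Adamts5, Mmp19 and Timp1) kept that call under quantile normalisation, a median ratio set to 0, the mean over probe sets and omission of probe sets with several possible targets. The count was 2 when the floor was raised to the 75th percentile, where Mmp19 dropped out, and 1 (Adamts5) at 3-fold. It was 6 under a 25th percentile floor, where Mmp3, Mmp24 and Adamts7 became measured on both arrays, 7 with log2(signal + 16), which adds the dim genes Mmp8 and Mmp10 and loses Mmp19, and 7 at 1.5-fold. The count of members at least 2-fold lower was 0 and became 1 (Adamts18) under a 25th percentile floor or with log2(signal + 16), and 2 (Mmp16 and Adamts9) at 1.5-fold; it stayed 0 under the other alternatives. These counts are out of 28 measured members, but of 38 with the 25th percentile floor, 23 with the 75th and 41 with log2(signal + 16). Over all genes, 426 were higher and 382 lower of 13620 with the 25th percentile floor, and 90 and 56 of 6460 with the 75th. With log2(signal + 16) they were 527 and 436 of 18193. At 3-fold they were 79 and 36 of 10649, and at 1.5-fold 552 and 663, against 202 and 179 at 2-fold. The median log2 ratio of the members lay between 0.13 and 0.25 over all alternatives. Each of the 12 members past 1.5-fold, bounds included, kept its sign under every alternative that gave it a ratio, which the floor at the 75th percentile did for 9. Signals near the floor limit the sizes of the Mmp3, Mmp19, Mmp24, Adamts7 and Adamts18 ratios. No paired analysis was possible because each medium has 1 array.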
